A study of Mus musculus with 212 samples.

Results

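Vcam1, vascular cell adhesion molecule 1 (RefSeq gene ID 22329), was followed in single mouse cells from embryos, neonatal and adult hearts and differentiating embryonic stem (ES) cells. It is 1 of 33 genes on a panel of 42 TaqMan assays, and was selected on its levels in these same cells, so those levels are given as a description. Values came from 200 cells in 7 tables, of which 192 were distinct: 6 cells at E10.5 and 2 at D29 each appear in another table with the same 42 values. Expression is 25 minus the quantification cycle (Ct), in cycles above the detection limit. One cycle is 1 unit on a log2 scale, and 0 means that the assay gave no signal.

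Vcam1 is a transmembrane adhesion molecule of the immunoglobulin superfamily whose best-known partner is the integrin alpha4beta1 on neighbouring cells. It is widely known from inflamed endothelium, where it holds white blood cells to the vessel wall. In the developing heart it is carried by the myocardium, and mouse embryos without it have defects of the placenta, the heart and the outer layer of the heart, the epicardium.

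The embryo sets were E7.5, E8.5, E9.5 and E10.5 (6 cells each in 1 table) and a larger E10.5 set (72 cells). Heart sets were neonatal and adult cells of the atrial chamber (5 and 10 cells) and of the ventricular chamber (5 and 10). Culture sets were D5, D6, D7 and D8 (6 cells each) and D23 and D29 (10 each), and the 6 reference sets, named ES, CPC, CM, SMC, FB and EDC in their table, had 5 cells each. The sample titles of 3 tables name another origin or stage than the tables and the cell names within them (D5-D8, E7.5-E10.5 and D23-D29), and sets are called here by table and cell name. No strain, genotype, age in days or treatment is used here. Animals and cultures are not named in the labels, so each set is 1 sample, spreads are between cells, and no test or p-value was computed.

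A cell was called a myocyte when Actn2 (sarcomeric alpha-actinin) and at least 1 assay of Tnnt2 (cardiac troponin T) were detected. By this rule 60 of 72 cells of the larger E10.5 set, all 30 neonatal and adult heart cells, all 20 D23 and D29 cells and 14 of 24 D5 to D8 cells were myocytes. The negative control of 6 tables gave no Vcam1 signal, and the table of the 72 E10.5 cells held no control of either kind. The positive control gave 14.05 cycles in 3 tables (E7.5-E10.5, reference, D5-D8) and 14.46 in the D23-D29 table. In the atrial and ventricular tables the Vcam1 row of the positive control held 12.43, which is the value of Pecam1 in those 3 tables, and 14.05 stood 1 row lower. The values of the cells do not share this shift. For 7 of the genes measured by 2 assays, the mean gap between both assays was 1.59 cycles in atrial and 1.57 in ventricular cells with the names as given. With the names moved by 1 row it was 7.79 and 6.04. Names were kept, and the values with names moved are given beside the chamber results.

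Vcam1 was detected in 85 of 192 distinct cells (44.3%, exact 95% interval 37.1 to 51.6%, counting error only). Detection was concentrated in the embryo, with 65 of 90 cells, and in the neonatal heart, with 10 of 10 (69.2 to 100%). It was detected in 7 of 44 culture cells (15.9%, 6.64 to 30.1%), in 3 of 30 reference cells and in 0 of 20 adult heart cells (upper bound 16.8%). Only 5 of the 85 detections lay within 2 cycles of the limit.

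In the embryo, Vcam1 was undetected at E7.5 (0 of 6 cells, upper bound 45.9%) and present from E8.5. The 6 E8.5 cells read 0, 0, 3.57, 5.30, 6.04 and 6.44 (3.56 ± 2.93, SD, n = 6). The 6 E9.5 cells read 0, 5.14, 6.07, 6.56, 6.97 and 7.23 (5.33 ± 2.71, SD, n = 6). All E7.5 cells read 0, so any detecting cell stands above them by definition, and 3 cells of these 2 stages also read 0. The 2 E8.5 cells without Vcam1 were the 2 that were not myocytes, and carried the endothelial cadherin Cdh5 at 12.1 and 11.4 cycles, whereas all 4 E8.5 myocytes had Vcam1 (5.34 ± 1.27). The E9.5 cell without it was a myocyte with Tnnt2-1 at 12.9 and Nkx2.5-2 at 7.9.

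The 6 E10.5 cells of the same table read 3.38, 3.46, 3.84, 4.07, 4.50 and 4.96 (4.04 ± 0.61, SD, n = 6), all above every E7.5 cell. Between E7.5 and E10.5 in this table, 24 of 42 assays (57.1%) stood 1 cycle or more higher and 9 lower, so Vcam1 was 1 of many. Its difference was 0.92 centred on Actb and 1.43 centred on the median detected assay. In centring, the undetected E7.5 cells take the lowest centred value among the cells compared, here an E10.5 one. These 2 values therefore give only the mean of E10.5 cells above their lowest, and do not size the stage difference after scaling. The largest differences were Tnnt2-1 (12.42) and Tnnt2-2 (12.25), and the VEGF receptor Flk-1 (-5.82) and the cytoskeletal actin Actb (-4.80) were lowest. Of the other adhesion and matrix genes, all 3 were lower at E10.5: Cdh5 (-4.64), fibronectin Fn1 (-3.96) and Pecam1 (-2.43), while Vcam1 was at least 4.04 cycles higher. The 10 assays of the cardiomyocyte list each exceeded E7.5 by 1 cycle or more, and their median difference was 10.06 against 2.64 for the panel.

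In the larger E10.5 set the lowest cell read 0, the highest 7.20, and the median of the 56 detecting cells was 4.46 (3.43 ± 2.21 over 72 cells). Over the 20 distinct sets the order of the means was E9.5, neonatal atrial, E8.5, neonatal ventricular, E10.5, reference EDC, D6, D8, D23, D29 and D7, followed by the 9 sets at 0. No gap between neighbours in this order exceeded the larger SD of the pair.

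**Figure D1:**
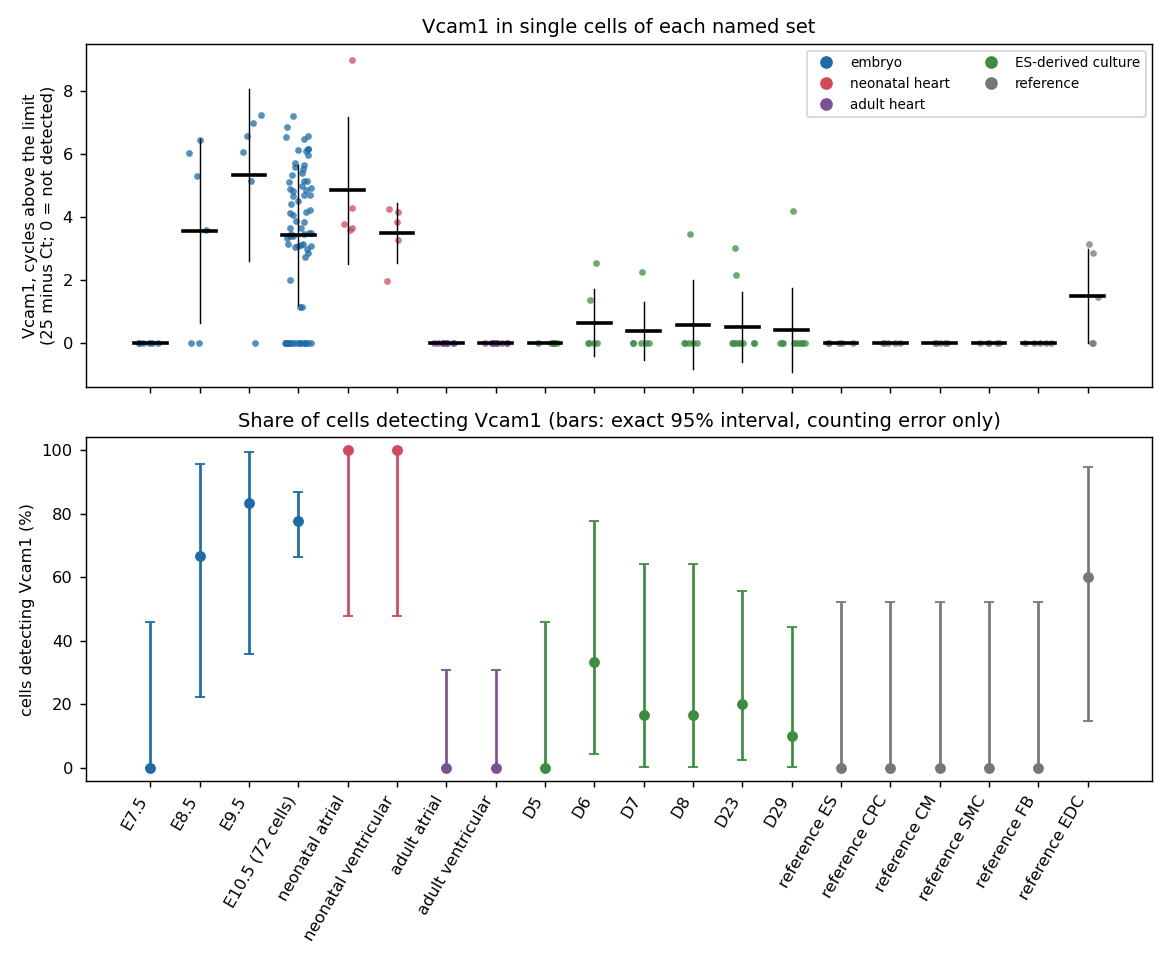
The upper panel plots Vcam1 in each cell (25 minus Ct, cycles) by named set, with the mean (thick line) and the SD between cells (thin line). The lower panel plots the share of cells detecting it with the exact 95% interval: neonatal sets are at 100%, adult sets at 0%, and no culture set exceeds 33.3%.

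All neonatal heart cells carried Vcam1 and no adult cell did, in both chambers. Neonatal atrial cells read 3.57, 3.64, 3.76, 4.27 and 8.99 (4.85 ± 2.33, SD, n = 5), and all 10 adult atrial cells read 0 (up to 30.8% detecting). Neonatal ventricular cells read 1.96, 3.28, 3.83, 4.17 and 4.25 (3.49 ± 0.94, SD, n = 5), and all 10 adult ventricular cells read 0. Neonatal and adult cells did not overlap in either chamber.

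The difference of means was at least 4.85 cycles in the atrium and 3.49 in the ventricle, lower limits because the adult cells were undetected. Centring on each cell's median detected assay gave 0.90 in the atrium and 0.71 in the ventricle, and centring on Actb gave 3.06 and 0.88. Undetected adult cells take the lowest centred value among the cells compared, here a neonatal one. These values therefore give only the mean of neonatal cells above their lowest, and do not size the age difference after scaling. In the atrial pair 15 of 42 assays stood 1 cycle or more higher in neonatal cells (35.7%) and 3 lower, and in the ventricular pair 7 (16.7%) and 13 lower. Vcam1 ranked 2 of 42 in both, after the intermediate filament Vim (8.18 and 5.60). The most negative differences in both were Myh6-1 (-1.55 and -2.64), alpha myosin heavy chain, and Tnni3-1 (-1.31 and -2.67), cardiac troponin I. Of the other adhesion and matrix genes, 1 of 3 was higher in the neonatal atrium (Fn1, 3.52) and 0 of 3 in the neonatal ventricle. Of the fibroblast and mesenchyme list (Vim, Fn1, Pdgfra), 3 of 3 were higher in the neonatal atrium and 2 of 3 in the ventricle, and the part of such RNA in the Vcam1 difference was not tested.

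Nkx2.5-2 in adult cells was 6.71 ± 1.11 (SD, n = 20) and was detected in 20 of 20, and Tnnt2-1 was 13.81 ± 1.22. Neonatal cells detected more assays than adult cells in the atrium (25.6 ± 1.52 against 19.7 ± 2.11), and Actb was 1.88 cycles higher there and 0.31 higher in the ventricle. The neonatal atrial cell at 8.99 also had the highest mesenchymal values of its set (Vim 13.8, Fn1 11.4, Pdgfra 9.2), beside Tnnt2-1 at 13.8. The other 4 neonatal atrial cells had Vim from 4.90 to 9.30 and Vcam1 at 3.81 ± 0.32, so their difference from adult cells was at least 3.81. With the row names moved by 1, the atrial difference was 0.70 and the ventricular one 0.74, and 1 of 5 neonatal cells of each chamber detected the gene.

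Culture cells rarely carried Vcam1 at any day. At D5 it was in 0 of 6 cells, at D6 in 2 (1.36 and 2.54), at D7 in 1 (2.24) and at D8 in 1 (3.47). At D23 it was in 2 of 10 (2.14 and 3.01) and at D29 in 1 of 10 (4.19). The 2 detecting D6 cells lacked Actn2 and were not myocytes, and the other 5 detecting culture cells were. Among culture myocytes 5 of 34 had Vcam1 (14.7%, 4.95 to 31.1%). D8 minus D5 was 0.58 cycles, within the D8 SD of 1.42, while 21 assays stood 1 cycle or more higher and 11 lower; Myh6-1 (10.86), Myh6-2 (10.36), the transcription factor Hand1 (-7.30) and the smooth muscle gene Sm22A (-6.00) differed most, and Actb by -5.57.

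Embryo cells exceeded D8 culture cells in Vcam1. E9.5 minus D8 was 4.75 cycles, with 5 of 6 against 1 of 6 cells detecting, and the 5 detecting E9.5 cells were above all D8 cells. Vcam1 ranked 2 of 42 after Sm22A (7.28). Its difference was 2.82 centred on Actb and 1.82 centred on the median detected assay. Undetected cells take the lowest centred value among the cells compared, so these values do not size the difference after scaling. In this pair 24 of 42 assays were at least 1 cycle higher at E9.5 (57.1%) and 2 lower, the growth factor receptor Pdgfra (-2.17) and Isl1-2 (-1.65), with Actb 1.77 higher.

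E10.5 myocytes (52 of 60, 86.7%, 75.4 to 94.1%; 3.89 ± 2.02) were 3.31 cycles above D8 myocytes (1 of 6; 0.58 ± 1.42), and the groups overlapped: 37 of the 60 were above every D8 cell, and 8 read 0 as 5 of the 6 D8 cells did. The difference was 5.89 centred on Actb, 2.01 centred on the median detected assay and 1.02 over detecting cells only. In centring, undetected cells, here 5 of the 6 at D8, take the lowest centred value among the cells compared. The 2 centred values therefore do not size the difference after scaling. Here 13 of 42 assays were at least 1 cycle higher at E10.5 (31%) and 4 lower, and Vcam1 ranked 2 after Sm22A (4.41). Pdgfra (-1.82) and Myh6-2 (-1.50) were lowest, and Actb differed by 0.67. Among E10.5 myocytes within the Actb range of the D8 cells, 38 of 43 had Vcam1 (4.14 ± 1.82).

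E10.5 myocytes were 3.42 cycles above the 20 D23 and D29 myocytes (3 of 20, 15%, 3.21 to 37.9%; 0.47 ± 1.19), and 30 of the 60 were above all of those. The difference was 5.50 centred on Actb, 1.98 centred on the median detected assay and 1.37 over detecting cells only. The centred values again rest on the lowest centred value, given to the 17 undetected culture cells, and do not size the difference after scaling. This pair differed broadly, with 24 of 42 assays at least 1 cycle higher at E10.5 (57.1%) and 1 lower (Pou5f1, -1.78), and Vcam1 ranked 9. The smooth muscle genes Cnn1 (7.46) and Sm22A (6.97) differed most, and Actb was 2.03 higher. Among the 18 E10.5 myocytes within the Actb range of the D23 and D29 cells, 15 had Vcam1 (3.14 ± 1.72), and among the 34 within their range of assays detected, 28 did (3.17 ± 1.92).

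Neonatal ventricular cells were 3.03 cycles above the D23 and D29 myocytes in Vcam1, which ranked 5. All 5 had Vcam1 against 3 of 20, and the 3 detecting culture cells overlapped them. Of 42 assays, 19 were at least 1 cycle higher in neonatal cells (45.2%) and 5 lower. The ventricular myosin light chain Myl2 (4.77) and Gata4-2 (4.44) led, Hand1 (-3.08) and the pacemaker channel Hcn4 (-1.28) were lowest, and Actb was -0.82. With row names moved this difference was 0.27, with Ct 23 as limit 1.34 and over detecting cells only 0.38.

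E10.5 myocytes and neonatal ventricular cells differed in Vcam1 by 0.39 cycles, less than either SD. Of the 60 E10.5 myocytes, 29 were above every neonatal cell and 10 below all of them. Other assays separated them, 14 at least 1 cycle higher at E10.5 and 8 lower: Cnn1 (8.62) and Sm22A (7.61) against Myh6-1 (-2.76) and Myl2 (-2.32), with Actb 2.85 higher at E10.5. The direction depended on processing: the Vcam1 difference was -2.93 centred on Actb, -1.11 centred on the median detected assay and 3.15 with row names moved by 1. In the centred values, E10.5 myocytes without signal took the lowest centred value among the cells compared.

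Reference cells carried Vcam1 in the EDC set only, in 3 of 5 cells (1.46, 2.86 and 3.13; 1.49 ± 1.50), among the 6 reference sets. The CPC, CM, SMC, FB and ES sets read 0 in 5 of 5 cells each, and 2 of the CM cells are the repeated D29 cells.

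Nkx2.5 is a homeobox transcription factor of the cardiac lineage, and its second assay, Nkx2.5-2, was the assay most correlated with Vcam1 in the larger E10.5 set. Vcam1 was in 48 of 52 cells with Nkx2.5-2 (92.3%, 81.5 to 97.9%) and in 8 of 20 without it (40%, 19.1 to 63.9%). Nkx2.5-2 was 6.14 ± 2.73 in the 56 cells with Vcam1 and 1.60 ± 3.06 in the 16 without. The groups overlapped: 2 myocytes without Vcam1 had Nkx2.5-2 at 8.3 and 8.5, and 4 cells with Vcam1 that were not myocytes had none. Within the 60 myocytes it was 6.61 ± 2.20 (48 of 52 cells) with Vcam1 and 3.20 ± 3.77 (4 of 8) without. The other assay of the gene, Nkx2.5-1, did not share this contrast in detection within myocytes. It was detected in 49 of 52 with Vcam1 (9.19 ± 2.44) and in 7 of 8 without (7.03 ± 3.33). Some cells without Nkx2.5-2 therefore had Nkx2.5-1, and lack of the Nkx2.5-2 signal is not lack of Nkx2.5.

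**Figure D2:**
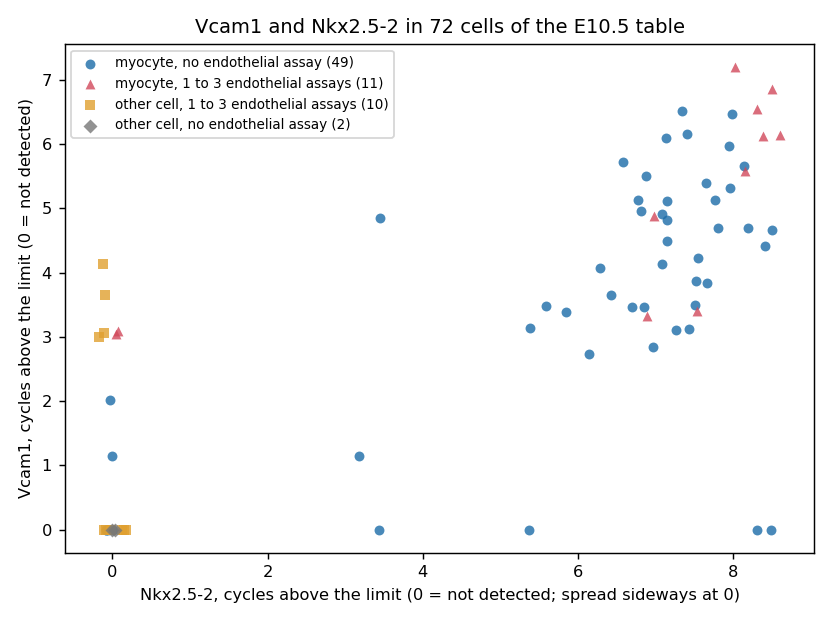
Each point is 1 of the 72 cells of the E10.5 table, with Nkx2.5-2 on the horizontal and Vcam1 on the vertical axis (cycles above the limit; points at 0 on the horizontal axis are spread sideways). Marker shapes give myocyte calls and detection of Cdh5, Pecam1 or Vwf; 48 of 52 cells with Nkx2.5-2 carry Vcam1, and 4 lie at 0.

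Ordered by Nkx2.5-2 in 3 groups of 20 myocytes, the lowest group (0 to 6.69) had Vcam1 in 14 cells (2.25 ± 1.83). The middle group (6.78 to 7.54) had it in 20 (4.47 ± 1.11) and the highest (7.55 to 8.60) in 18 (4.95 ± 1.92). Assays detected moved with it, at 23.65, 27 and 28.7 per cell, and their part in the result was not tested.

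In culture and adult cells Nkx2.5-2 was mostly present without Vcam1. Nearly all D7, D8, D23, D29 and adult cells had Nkx2.5-2, so these sets cannot show whether Vcam1 goes with it. Vcam1 was in 2 of 11 D7 and D8 cells with Nkx2.5-2 (5.94 ± 1.12), in 3 of 19 such D23 and D29 cells (5.02 ± 1.26) and in 0 of 20 adult cells (6.71 ± 1.11). Of the 34 E10.5 cells whose Nkx2.5-2 lay within the D8 range, 33 had Vcam1 (97.1%, 84.7 to 99.9%), and of the 45 within the adult range, 43 did (95.6%, 84.8 to 99.5%).

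**Figure D3:**
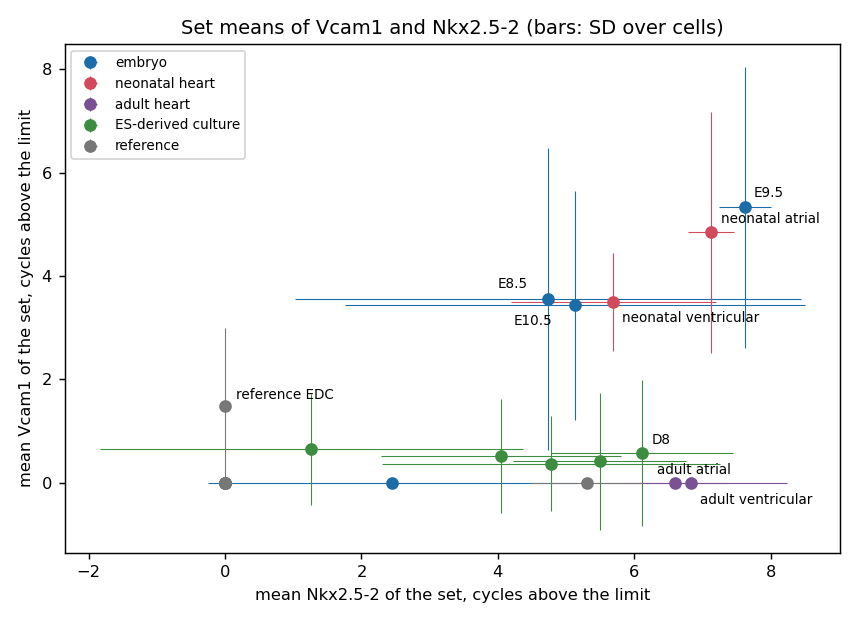
Each point is the mean of 1 of the 20 distinct sets, with Nkx2.5-2 on the horizontal and Vcam1 on the vertical axis (cycles) and the SD between cells as bars. Adult atrial and ventricular cells lie at 0 for Vcam1 with Nkx2.5-2 at a mean of 6.71 over both, and D8 cells at 0.58 with Nkx2.5-2 at 6.11.

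Across the 72 E10.5 cells, which share a table and differ in type and in assays detected, Pearson's r with Vcam1 was at least 0.3 for 21 of 41 assays and -0.3 or lower for 2. The 8 highest were Nkx2.5-2 (0.71), Myh6-2 (0.64), Nkx2.5-1 (0.63), Myh6-1 (0.59), Tnnt2-1 (0.59), Actn2 (0.57), Cnn1 (0.57) and Tnni3-1 (0.56). Of these 8, 4 stayed among the 8 highest within myocytes, and 4 when 9 cells with few assays detected were left out. The 5 lowest were Pecam1 (-0.36), Cdh5 (-0.31), Fn1 (-0.27), Vim (-0.21) and Pdgfra (-0.18). Vcam1 also correlated with the number of other assays detected per cell (r = 0.64, n = 72).

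All 10 cardiomyocyte assays had r of at least 0.3 (median 0.56, against 0.31 over all assays), as did 7 of 12 assays of cardiac transcription factors (median 0.38). None of the 4 endothelial or the 3 fibroblast and mesenchyme assays did. Within the 60 myocytes r was at least 0.3 for 16 assays and never -0.3 or lower, and the negative values of Pecam1 and Cdh5 became 0.02 and 0.03. Nkx2.5-2 stayed highest there at 0.64. Given the number of assays detected, over 72 cells, 0 of the 10 cardiomyocyte assays reached 0.3. Within myocytes without that adjustment 7 of 10 did. The number of assays detected counts the other cardiac assays too, and was 26.45 per cell in myocytes and 17.9 in other cells. Adjusting for it thus also takes out cell type, and cannot tell the 2 apart. With that number given, Nkx2.5-2 was at 0.44, ahead of Cnn2 (0.38), Gata4-2 (0.34) and Myh6-2 (0.26). The other assay of the same gene, Nkx2.5-1, was at 0.20 there, against 0.63 without the adjustment.

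**Figure D4:**
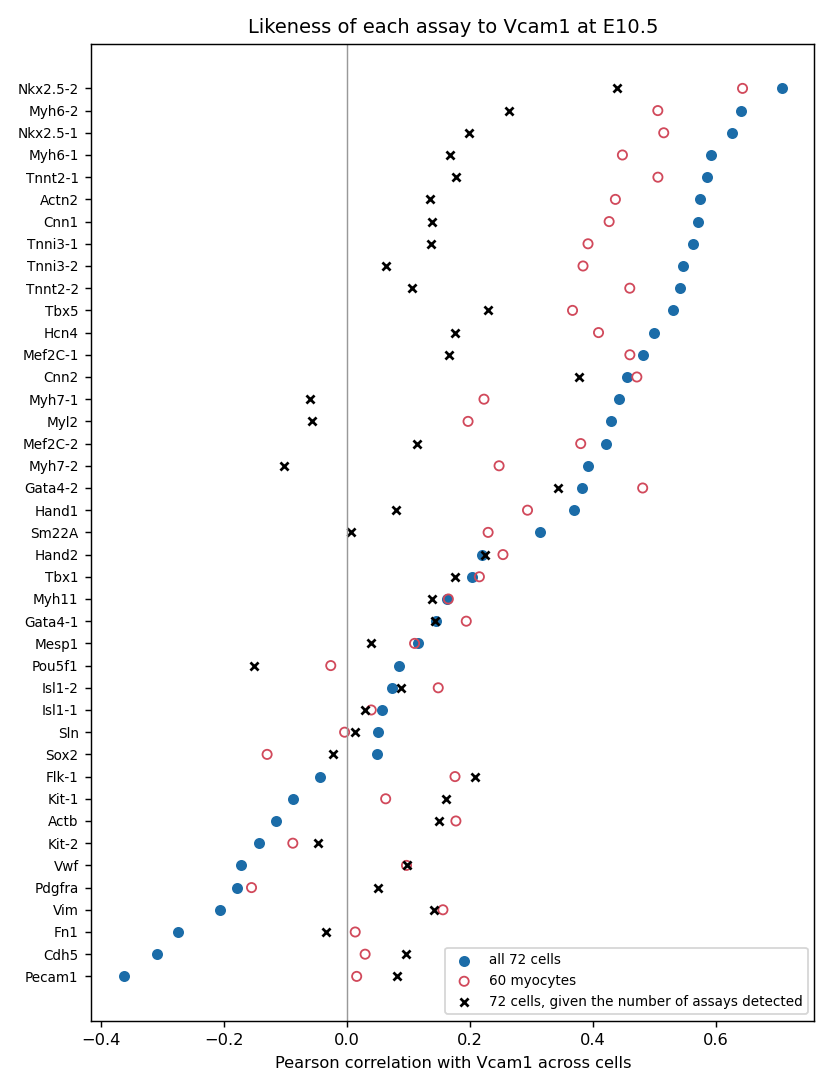
Each row is 1 of 41 assays and the horizontal axis is Pearson's r with Vcam1 in E10.5 cells: filled points for all 72 cells, open points for the 60 myocytes, crosses for 72 cells given the number of assays detected. Nkx2.5-2 is at 0.71, 0.64 and 0.44, and Pecam1 moves from -0.36 to 0.02 among myocytes.

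Myocytes of the larger E10.5 set carried Vcam1 more often than its other cells, 52 of 60 against 4 of 12 (33.3%, 9.92 to 65.1%; 1.15 ± 1.73), and detected more assays (26.45 ± 3.10 against 17.9 ± 2.91). Endothelial transcripts did not mark its absence among cells called myocytes by the rule: 11 of 11 with Cdh5, Pecam1 or Vwf had Vcam1 (5.11 ± 1.62), against 41 of 49 without (3.61 ± 2.01). Some of the 11 counted only on Vwf near the limit (0.37 and 1.17). For others the myocyte call is uncertain. A cell with Actn2 at only 1.12 had Cdh5 at 10.3 and Vwf at 7.39, and neither Nkx2.5 assay. Another with Pecam1 at 5.13 had Pdgfra at 10.6 and also neither Nkx2.5 assay. Assays detected were 27.9 ± 4.37 in the 11 and 26.1 ± 2.69 in the 49, and their part was not tested. Among the other cells Vcam1 was in 4 of 10 with an endothelial assay and in 0 of 2 without. Of the 6 cells with all 3 endothelial assays that were not myocytes, 2 had it. Whether 2 cells shared a well was not tested.

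Within the 60 myocytes, Vcam1 was 4.40 ± 1.85 in the 31 with Hand1 and 3.34 ± 2.08 in the 29 without, a difference below either SD. It was 4.49 ± 1.78 in the 35 with the pacemaker channel Hcn4 and 3.04 ± 2.05 in the 25 without, also a difference below either SD. With Myl2 it was in 47 of 54 and without it in 5 of 6. All 5 E10.5 cells with the atrial gene Sln had Vcam1 (3.91 ± 0.85). These groups overlapped in each case. Assays detected moved with the splits, at 28.03 against 24.76 per cell for Hand1 and 28.1 against 24.1 for Hcn4, and their part in the result was not tested.

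Over the means of the 20 sets, the assays most like Vcam1 were Gata4-1 (r = 0.69), Mef2C-2 (0.64), Mef2C-1 (0.56), Gata4-2 (0.55) and Tbx5 (0.54), all cardiac transcription factors. The least like were Pou5f1 (-0.32), Mesp1 (-0.26) and Isl1-2 (-0.22). Mesp1 and Isl1-2 belong to the same list of cardiac transcription factors, so the list did not move as a whole. Sets differ in cell type, table and assays detected, so these values describe the panel of sets.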

How the data were processed

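Single cells were sorted, lysed, reverse transcribed, pre-amplified with TaqMan assays and read on Fluidigm chips, per the labels' protocols. The authors deposited Ct values, a score in which lower means more template and 25 means no signal, as the values show. How Ct was thresholded, whether cells were filtered and how many cycles were run is not given in the sources used here. Expression was 25 minus Ct with no reference-gene correction. Groups follow the table named in each sample's description and the cell names within it, and 12 control columns were kept apart.

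Means, SDs over cells, exact (Clopper-Pearson) 95% intervals and Pearson correlations were computed in Python 3.11.15 (numpy 2.4.6, pandas 2.3.3, scipy 1.17.1), checked on simulated data. No test was run, since no animal or culture is named. Precision is limited by 5 to 72 cells per set. Vcam1 and the lists were chosen with earlier results of these data known. Beside Vcam1, the text names the 8 most and 5 least correlated assays at E10.5, the 5 and 3 over set means, the 2 largest differences each way, Actb, and members of marker lists. Splits of E10.5 cells and matched ranges of Nkx2.5-2, Actb and assays detected were chosen after seeing the data. Alternatives covered centring, the limit, cell filters, the myocyte rule, row names and left-out cells.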

Additional observations from a re-analysis of the deposited data

Results flagged for a closer look

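In 5 of the 11 sets examined, 1 cell stood apart from the rest of its set by Dixon's criterion. Chance meets it in about 1 of 20 sets of continuous values. That rate does not hold for sets with many cells at 0, so the count is not set against it. At E9.5 the lowest cell read 0 while the other 5 were at 5.14 or higher. In the neonatal atrial set the highest cell read 8.99, the cell with high Vim, Fn1 and Pdgfra. In the D7, D8 and D29 sets the single detecting cell read 2.24, 3.47 and 4.19, with every other cell at 0, so that any detection there stands apart.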

How the results depend on the processing

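Of the alternatives to the 9 differences, the likeness count and both detection summaries, 85 stayed within the spread between cells (counts within 1.5 times) and 23 moved beyond it; E10.5 myocytes minus neonatal ventricle turned from 0.39 to -2.93 centred on Actb, to -1.11 centred on the median detected assay and to -0.063 over all E10.5 cells. D8 minus D5 was 0 with medians, and none of the other 7 differences changed sign. Centred on Actb, differences were 0.88 (neonatal minus adult ventricle), 5.89 (E10.5 minus D8), 5.50 (E10.5 minus D23 and D29) and 0.92 (E10.5 minus E7.5). Centred on each cell's median detected assay, they were 0.90 (neonatal minus adult atrium), 0.71 (ventricle), 1.82 (E9.5 minus D8) and 1.43 (E10.5 minus E7.5). Centring gives undetected cells the lowest centred value of those compared. So D8 minus D5, with 1 detecting cell, must be 0, and differences from sets at 0 cannot turn negative. The other centred differences also rest on that value and do not size a difference after scaling. With Ct 23 as limit and no centring, differences were 1.50 (neonatal minus adult ventricle), 1.34 (neonatal ventricle minus D23 and D29) and 2.04 (E10.5 minus E7.5). Over detecting cells only they were 1.02 (E10.5 minus D8), 1.37 (E10.5 minus D23 and D29) and 0.38 (neonatal ventricle minus D23 and D29). Names moved by 1 row gave 0.70 (atrium), 0.74 (ventricle), 3.15 (E10.5 minus neonatal ventricle) and 0.27 (neonatal ventricle minus D23 and D29). Leaving out each neonatal cell in turn gave 3.81 to 5.17 for the atrial, 3.31 to 3.88 for the ventricular, 0.0075 to 0.58 for the E10.5 minus neonatal and 2.84 to 3.41 for the neonatal minus D23 and D29 difference.

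Of the 8 assays most like Vcam1, 4 stayed among the 8 highest over detecting cells, 4 among myocytes and 3 given the number of assays detected, where r was 0.10 for Cdh5 and 0.082 for Pecam1; among myocytes it was 0.030 and 0.016. The cell filter's cutoff was set after the data were seen. Leaving out cells without Actb or more than 3 median absolute deviations below their table in assays detected removed 9 E10.5 cells and kept 4 of the 8; it removed all 6 E7.5 cells, so E10.5 minus E7.5 has no value under it. After that result was seen, the deviation scaled to a normal SD was added: it removed 3 E10.5 cells, kept 8 of the 8 and left E10.5 minus E7.5 at 4.04. The likeness ranking therefore depends on this cutoff, while the 8 differences with a value under both cutoffs stayed within the spread. The cause was not tested for the other moves. No paired analysis was possible because replicate numbers here only name cells in accession order. Ct ends at 25, so low expression and absence read alike.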
